A study of Mus musculus with 16 samples.

Results

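Among 36255 merged H3K4me3 regions of LIF-ESCs and Myc-ESCs, 468 carried Suz12 in LIF-ESCs only. Overlapping H3K4me3 peaks of both cultures were joined into regions, and a region was kept when it overlapped a LIF-ESC H3K4me3 peak, had a LIF-ESC Suz12 peak within 1000 bp and had no Myc-ESC Suz12 peak within 1000 bp. The regions kept are 1.47% of the 31943 regions with H3K4me3 in LIF-ESCs, and 13.1% of the 3567 that also had Suz12 there. They fell into 101 strong regions, whose best LIF-ESC Suz12 peak had a score of 100 or more, and 367 weak ones. The score is the authors' value for each peak, −10 log10 of the p-value given by the peak caller MACS, and it starts at 50 in every list. The regions were thus chosen by their Suz12 peaks in both cultures and their LIF-ESC H3K4me3 peaks, so those values are described below and not tested. Myc-ESC H3K4me3 peaks entered the choice through the joining alone, as reach was measured from the joined regions.

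All cells were R1 mouse embryonic stem cells (ESCs) with the MycER transgene, a fusion of a Myc protein to the hormone-binding part of the estrogen receptor, which 4-hydroxytamoxifen (OHT) switches on. The cells came from 1 clone, and both cultures carried the transgene. LIF-ESCs received 100 units per ml of LIF and no OHT, and Myc-ESCs received 50 nM OHT and no LIF. Chromatin immunoprecipitation sequencing gave 16 libraries, of which 4 were inputs and 2 stood for each antibody in each culture, and 6 peak lists were deposited.

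Suz12 is a core subunit of Polycomb repressive complex 2 (PRC2), the enzyme complex that trimethylates histone H3 at lysine 27 (H3K27me3), a mark of repressed genes. H3K4me3 marks the start sites of active or poised genes, and start sites that carry both marks, called bivalent, are typical of developmental genes in ESCs. In mammals PRC2 is found mostly at CpG islands, stretches of DNA rich in G and C in which the dinucleotide CG is not depleted.

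The DNA under the LIF-only Suz12 peaks is shown first, since CG content is a property that the choice of regions did not use. Each window below is 300 bases of the plus strand of GRCm38, centred on the best LIF-ESC Suz12 peak of a strong region, with every CG in capitals. The windows are those of Rragd (chr4:32984212-32984511, 8 CG), Fgf15 (chr7:144897193-144897492, 18 CG), Tec (chr5:72867669-72867968, 7 CG), Kcnk1 (chr8:125995609-125995908, 24 CG) and Fzd7 (chr1:59480896-59481195, 11 CG). Tec and Kcnk1 hold the fewest and the most CG among the 12 top-scoring regions with a gene, and Fzd7 is a Wnt receptor gene that the study follows.
Rragd: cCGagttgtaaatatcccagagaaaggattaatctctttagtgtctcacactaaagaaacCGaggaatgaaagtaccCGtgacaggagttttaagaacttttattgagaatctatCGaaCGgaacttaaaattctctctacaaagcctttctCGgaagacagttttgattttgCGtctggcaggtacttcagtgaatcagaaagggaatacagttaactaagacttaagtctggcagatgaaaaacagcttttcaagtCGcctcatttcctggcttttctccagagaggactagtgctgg
Fgf15: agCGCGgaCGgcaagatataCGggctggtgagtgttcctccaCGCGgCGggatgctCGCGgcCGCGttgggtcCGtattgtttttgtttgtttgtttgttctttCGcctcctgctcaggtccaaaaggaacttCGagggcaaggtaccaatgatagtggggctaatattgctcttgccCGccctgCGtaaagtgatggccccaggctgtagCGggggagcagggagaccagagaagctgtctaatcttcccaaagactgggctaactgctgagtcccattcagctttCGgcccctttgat
Tec: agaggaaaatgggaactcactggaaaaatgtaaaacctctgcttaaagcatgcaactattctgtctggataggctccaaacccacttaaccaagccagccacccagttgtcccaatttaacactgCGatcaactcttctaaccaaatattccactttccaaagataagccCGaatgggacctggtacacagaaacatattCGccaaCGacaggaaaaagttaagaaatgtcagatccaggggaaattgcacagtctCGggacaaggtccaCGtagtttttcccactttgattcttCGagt
Kcnk1: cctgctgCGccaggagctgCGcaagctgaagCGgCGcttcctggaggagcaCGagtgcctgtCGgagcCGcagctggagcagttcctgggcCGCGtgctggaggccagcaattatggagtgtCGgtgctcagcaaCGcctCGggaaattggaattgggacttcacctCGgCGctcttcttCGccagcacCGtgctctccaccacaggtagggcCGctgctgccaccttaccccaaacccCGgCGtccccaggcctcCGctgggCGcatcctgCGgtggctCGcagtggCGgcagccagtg
Fzd7: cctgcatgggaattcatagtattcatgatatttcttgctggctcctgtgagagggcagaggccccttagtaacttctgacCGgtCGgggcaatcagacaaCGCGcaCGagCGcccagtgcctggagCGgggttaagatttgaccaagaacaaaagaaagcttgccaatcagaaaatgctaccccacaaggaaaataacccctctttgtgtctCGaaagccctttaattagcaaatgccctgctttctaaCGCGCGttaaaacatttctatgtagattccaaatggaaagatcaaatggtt

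Compared with regions that kept Suz12, these windows were poorer in CG. The median ratio of observed to expected CG in 300 bp was 0.556 in strong and 0.500 in weak LIF-only regions, against 0.624 and 0.555 in the 2265 strong and 834 weak regions with Suz12 in both cultures. A window over 50% GC with a ratio over 0.6, the usual content criteria of a CpG island, was found at 27 of 101 strong LIF-only regions (26.7%, 95% Wilson interval 19.1 to 36.1%) and at 45.4% of strong regions with Suz12 in both cultures (43.4 to 47.5%). The difference was −18.7 percentage points, with an interval of −26.6 to −9.11 (Newcombe), and for weak regions it was −12.3 points (−17.7 to −6.62). The strong sets also differ in Suz12 score, with medians of 133 at LIF-only regions and 384 with Suz12 in both cultures. In the score bin of 100 to 150, with like median scores (123 and 121), the order was not seen. There the median ratio was 0.569 at 63 LIF-only regions and 0.560 at 395 with Suz12 in both cultures. In the bin of 150 to 250 it was 0.482 at 25 and 0.586 at 429 regions, with median scores of 167 and 193. At 50 to 75 the median ratios were 0.495 and 0.541, at 75 to 100 0.529 and 0.583, and at 250 or more 0.641 and 0.659. Among the windows printed above, Fgf15 had a ratio of 0.783 at 55.7% GC and Tec one of 0.500 at 43.7% GC. These intervals, like all others below, cover counting error alone and take regions as independent, since there was 1 list for each culture and antibody and no replicate error.

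The E-box CACGTG, the core sequence bound by Myc with its partner Max, and TTCNNNGAA, the pattern bound by Stat proteins, were searched in the same windows. Both patterns read the same on either strand, and neither contains the other. CACGTG occurred in 6 of 101 strong windows (5.94%) and 23 of 367 weak ones (6.27%), against 5.25 and 4.32% where both cultures had Suz12 and 7.15% of 32851 RefSeq promoters of 300 bp. TTCNNNGAA was present in 2 of 101 strong windows (1.98%, interval 0.545 to 6.93%) and in 36 of 367 weak ones (9.81%), against 7.46 and 6.35% with Suz12 in both cultures and 8.30% of promoters. For strong regions the difference was −5.48 points (−7.32 to −0.425) and for weak ones 3.45 points (0.223 to 7.22), so the sets of regions lay on opposite sides. With windows of 1000 bp the strong shares were 22.8 and 21.5%, and the difference of 1.27 points (−6.03 to 10.5) included 0. Of the 5 windows printed, Rragd alone had a match, TTCTCGGAA from base 149. A match describes letters only, and Stat or Myc binding was not analysed here.

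As a check of the cells, 8 of 8 marker genes of ESCs, Pou5f1, Sox2 and Nanog among them, had H3K4me3 near a start site in both cultures. Fibroblast markers had it at 4 of 6 genes in LIF-ESCs and 6 of 6 in Myc-ESCs, trophoblast markers at 2 of 3 and primitive endoderm markers at 4 of 4 in both. Suz12 lay at 1 ESC marker in LIF-ESCs (Esrrb) and at 2 in Myc-ESCs (Esrrb and Klf4). It lay at 2 fibroblast markers in LIF-ESCs and at 4 in Myc-ESCs, and at the same numbers of trophoblast (2) and endoderm (4) markers in both cultures. H3K4me3 at bivalent start sites does not show expression. Of these 21 genes 0 was a gene of the LIF-only set, against 1.68% of all genes with LIF-ESC H3K4me3.

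The Suz12 peaks that defined the set were mostly small. Strong regions had a median best score of 133 and a median of 2 peaks that summed to 549 bp, and weak regions had 63.7, 1 peak and 197 bp. Of the 367 weak regions, 302 rested on a single peak, as did 38 of the strong ones. The share of Suz12-bound H3K4me3 regions that were LIF-only was 35.7% at scores of 50 to 75, 19.6% at 75 to 100, 13.8% at 100 to 150, 5.51% at 150 to 250 and 0.894% at 250 or more. LIF-only calls were thus most frequent near the peak threshold, where a peak in 1 list and none in the other can also mean signal on either side of that threshold. The Myc-ESC Suz12 list is the longer one, with 13907 peaks against 11305.

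The nearest Myc-ESC Suz12 peak lay at a median of 136200 bp from strong regions and 121577 bp from weak ones. Only 32 of 468 regions had one between 1000 and 5000 bp away. At the limits of the choice, the region at Aatf had its LIF-ESC Suz12 peak at 964 bp and a Myc-ESC peak at 1023 bp, while the region at Phox2a was left out by a Myc-ESC peak at 945 bp. The LIF-ESC Suz12 peak of Aatf overlapped that Myc-ESC peak, which had a score of 103.7, so the site itself was listed in both cultures. The same was found at 1 other weak and 1 strong region, both in a stretch of chromosome 6 described below. The farthest LIF-ESC peak of a kept region was at 967 bp (Arhgef15) and the nearest beyond reach at 1029 bp. Aatf also had the highest weak score, 99.85, and Dok5 the lowest strong score, 100.45.

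Grhl2, a transcription factor of epithelial cells, stood apart from all other LIF-only regions. Its best LIF-ESC Suz12 peak spans the start site and had a score of 2329.18, which ranked 224 among the 3567 regions with LIF-ESC Suz12, and a neighbouring peak had 607.48. The next LIF-only region, at Rragd, had 382.55, and 1138 regions reached that score, of which 2 were LIF-only. No Myc-ESC Suz12 peak was listed within 551881 bp of the Grhl2 region. A LIF-ESC H3K27me3 peak of 130 bp lay there with a score of 63.3, and none was listed in Myc-ESCs. The H3K4me3 peak covered 3823 bp in LIF-ESCs, against 8698 bp in Myc-ESCs. At Grhl2 the LIF-ESC peaks of Suz12 and H3K27me3 thus had no counterpart in the Myc-ESC lists, while the H3K4me3 peak was longer.

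Other regions among the 12 top-scoring ones with a gene belonged to signalling, matrix and metabolic genes. Rragd, a Rag GTPase that signals amino acids to mTORC1, had an H3K4me3 peak of 3306 bp in LIF-ESCs, against 6559 bp in Myc-ESCs, and a LIF-ESC H3K27me3 peak of score 75.7. Sema3e, a secreted guidance cue, had a Suz12 score of 326.5 and H3K4me3 peaks of 2186 and 3176 bp. Lsm14b, which encodes an RNA-binding protein, scored 325.01 and was the only one of the 12 with H3K27me3 in Myc-ESCs (79.6, against 70.9 in LIF-ESCs).
Lamb1, the laminin beta chain of basement membranes, had 3 Suz12 peaks with a best score of 311.43, and its H3K4me3 peak was 3296 bp long in LIF-ESCs, against 5134 bp in Myc-ESCs. Sall2, a zinc-finger factor of the Sall family, had a score of 290 over its coding exon. Both genes showed no H3K27me3 peak in either culture.
Fgf15, an Fgf ligand of the embryo, had 3 Suz12 peaks (76.4, 262.59 and 284.87) within the LIF-ESC H3K4me3 peak of 3845 bp, against 6549 bp in Myc-ESCs. Acss1, a mitochondrial acetyl-CoA synthetase (282.66), and Tec, a cytoplasmic tyrosine kinase (260.38), had nearly equal H3K4me3 lengths in both cultures, with ratios of 1.12 and 1.11. Kcnk1, a potassium channel, scored 257.06 and had H3K4me3 of 2981 and 4895 bp. Car4, a membrane-bound carbonic anhydrase, scored 241.84, with 2035 and 4237 bp.
All 12 regions had a longer H3K4me3 peak in Myc-ESCs, with ratios from 1.11 to 2.28, while 4 had H3K27me3 in LIF-ESCs and 1 in Myc-ESCs. In 10 of them the Suz12 midpoint lay downstream of the start site.

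**Figure D1:**
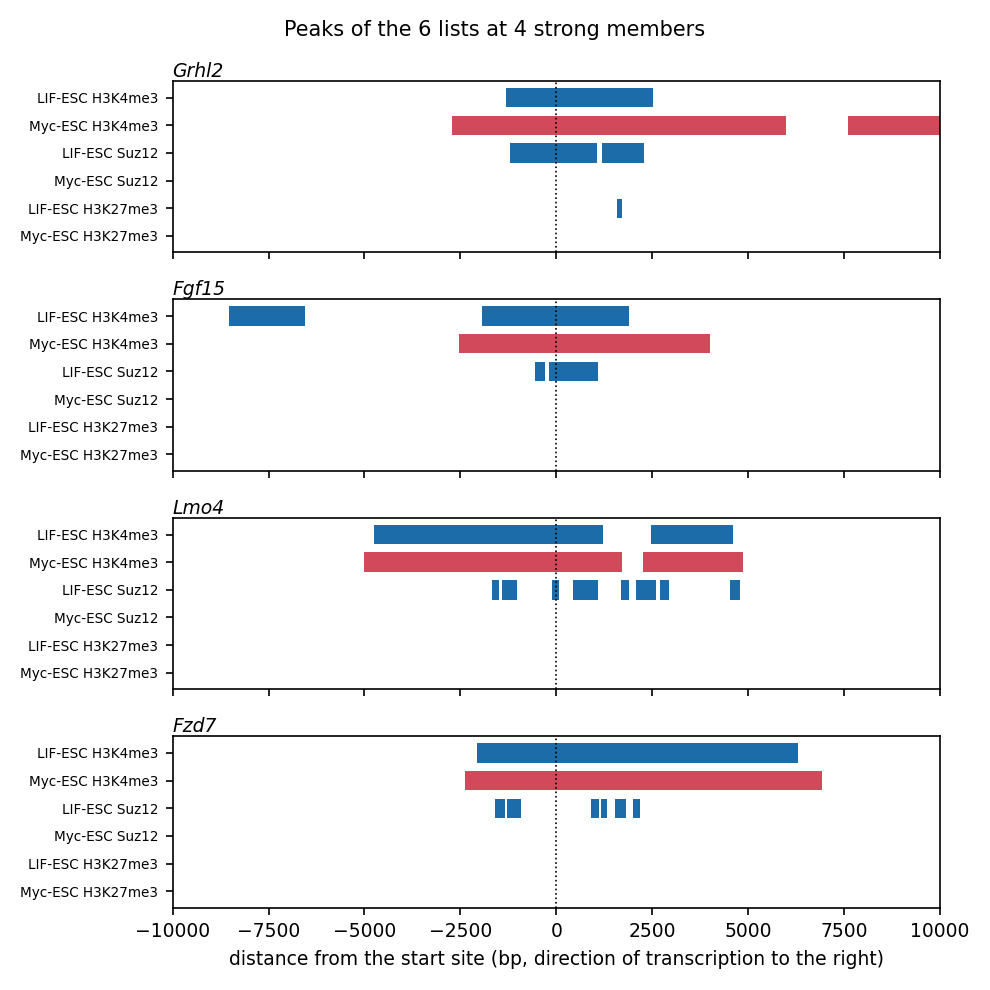
Peaks of the 6 lists around the start sites of Grhl2, Fgf15, Lmo4 and Fzd7, against distance from the start site in bp in the direction of transcription (bars are peaks, blue for LIF-ESCs and red for Myc-ESCs, dotted line at the start site). LIF-ESC Suz12 peaks lie in and beside the H3K4me3 peaks of both cultures, and the Myc-ESC Suz12 row is empty at all 4 genes.

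H3K27me3 played no part in the choice of the regions, and it was sparse at them in both cultures. Within 1000 bp it was listed at 16 of 101 strong LIF-only regions in LIF-ESCs (15.8%, 9.99 to 24.2%) and at 18 in Myc-ESCs (17.8%, 11.6 to 26.4%). Weak regions had it at 35 of 367 in LIF-ESCs (9.54%, 6.94 to 13.0%) and at 59 in Myc-ESCs (16.1%, 12.7 to 20.2%). The same shares over all 31943 regions with LIF-ESC H3K4me3 were 3.62 and 9.64%. Regions with Suz12 in both cultures had 34.0 and 77.3% (strong) and 15.1 and 51.9% (weak), and the 1195 regions with Suz12 in Myc-ESCs only had 6.28 and 38.7%. In Myc-ESCs the strong LIF-only regions stood 59.4 points below strong regions with Suz12 in both cultures (difference −59.4, interval −65.9 to −50.7), and in LIF-ESCs 18.2 points below (−18.2, −24.4 to −9.63). For weak regions the differences were −35.8 points (−40.6 to −30.5) in Myc-ESCs and −5.57 points (−9.24 to −1.45) in LIF-ESCs. These differences are not matched for Suz12 score, and the shares by score are given below for both cultures. Against the 27181 regions without Suz12, where 1.31% had H3K27me3 in Myc-ESCs, all LIF-only regions together (16.5%) stood 15.1 points higher (12.1 to 18.8).

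**Figure D2:**
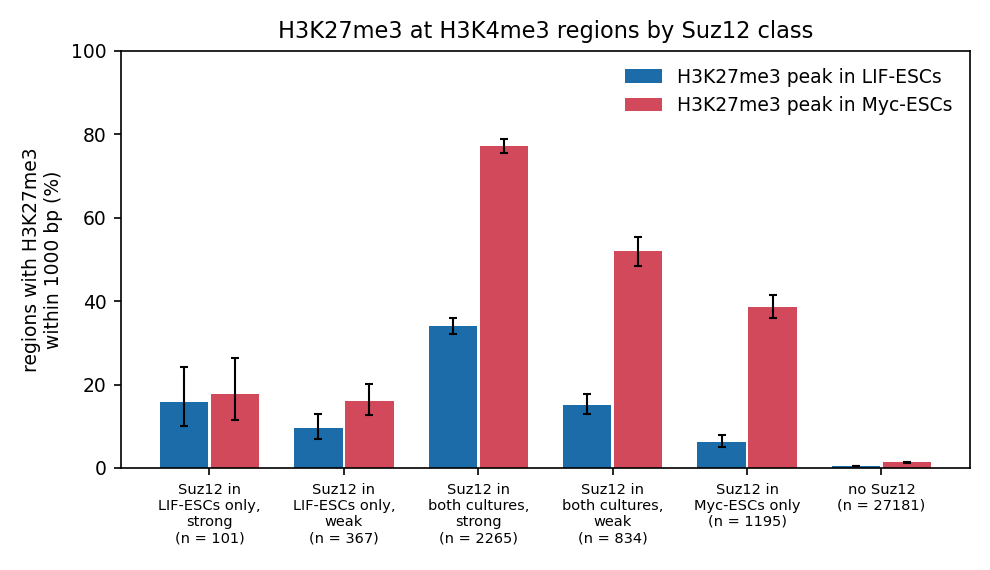
Share of H3K4me3 regions with an H3K27me3 peak within 1000 bp in LIF-ESCs (blue) and Myc-ESCs (red), by Suz12 class, with 95% Wilson intervals of counting error and the number of regions. Strong LIF-only regions have 15.8 and 17.8%, strong regions with Suz12 in both cultures 34.0 and 77.3%.

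Between the cultures, the H3K27me3 lists differ in length, with 3120 peaks for LIF-ESCs against 16717 for Myc-ESCs. When the Myc-ESC list was limited to its 3120 highest-scoring peaks, the Myc-ESC share fell to 2.97% at strong and 2.45% at weak LIF-only regions, below their LIF-ESC shares, while strong regions with Suz12 in both cultures had 34.1% against 34.0%. The direction from LIF-ESCs to Myc-ESCs at LIF-only regions therefore depends on the list lengths, whereas their Myc-ESC share stayed below that of regions with Suz12 in both cultures with either list. The LIF-ESC share of weak regions came closer when the Suz12 lists were of equal length, at 11.6% (8.91 to 15.0%), against 14.4% (12.1 to 17.1%) with Suz12 in both cultures.

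Among LIF-only regions without H3K27me3 in LIF-ESCs, it was listed in Myc-ESCs at 11 of 85 strong regions (12.9%, 7.38 to 21.7%) and 41 of 332 weak ones (12.3%, 9.24 to 16.3%), against 70.1 and 46.9% where Suz12 was in both cultures and 36.6% where it was in Myc-ESCs only. Where no Suz12 was listed, that share was 1.22%. H3K27me3 in Myc-ESCs alone was present at 6.8% and in LIF-ESCs alone at 0.773% of all regions with LIF-ESC H3K4me3. It was in LIF-ESCs alone at 9 of 101 strong LIF-only regions (8.91%, 4.76 to 16.1%), against 3.05% of strong regions with Suz12 in both cultures, a difference of 5.86 points (1.64 to 13.1). For weak regions the shares were 4.63 and 3.00%, and the difference of 1.63 points (−0.577 to 4.46) included 0. Of the 51 LIF-only regions that had the mark in LIF-ESCs, 25 had it in Myc-ESCs too (49.0%, 35.9 to 62.3%), compared with 803 of 897 (89.5%, 87.3 to 91.4%) where Suz12 was in both cultures.

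The gap in Myc-ESC H3K27me3 held at each level of LIF-ESC Suz12. In bins of score 50 to 75, 75 to 100, 100 to 150, 150 to 250 and 250 or more, the LIF-only shares were 14.4, 22.7, 20.6, 16 and 7.69%, against 49.7, 55.7, 61.5, 65.0 and 85.2% with Suz12 in both cultures. The shares of the latter were higher in each higher bin, whereas the LIF-only intervals all overlapped each other. For LIF-ESC H3K27me3 the gap was smaller in each bin. There the LIF-only shares were 7.88, 16, 9.52, 24 and 30.8%, against 14.2, 16.6, 17.7, 20.3 and 42.6% with Suz12 in both cultures. The intervals overlapped in every bin, at 50 to 75 only just, and at 150 to 250 the LIF-only share was the higher. The highest bin holds 13 LIF-only regions, of which 4 had H3K27me3 in LIF-ESCs, compared with 1 in Myc-ESCs.

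**Figure D3:**
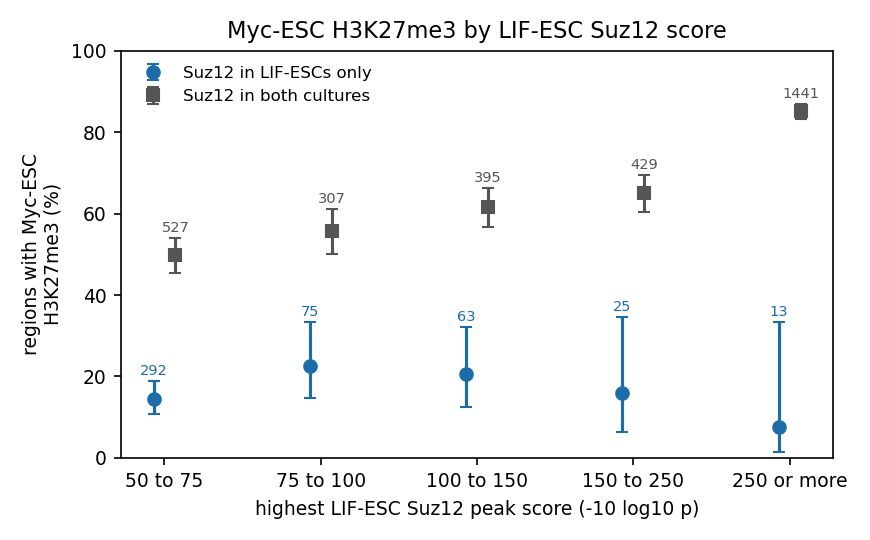
Share of H3K4me3 regions with Myc-ESC H3K27me3 within 1000 bp against the highest LIF-ESC Suz12 score, for regions with Suz12 in LIF-ESCs only (circles) and in both cultures (squares), with 95% Wilson intervals and the number of regions above each. LIF-only shares lie between 7.69 and 22.7%, the others between 49.7 and 85.2%.

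A single stretch of chromosome 6 held 10 of the 468 regions within 123920 bp (chr6:114506386-114630305), with no start site near, between those of Hrh1 and Atg7. All 10 had H3K27me3 in both cultures, and 6 had no H3K4me3 peak in Myc-ESCs. The 13 regions of the stretch with Suz12 in both cultures and the 1 region without Suz12 also had H3K27me3 in both cultures, and 9 of those 13 had H3K4me3 in Myc-ESCs. The lists held 64 Suz12 peaks there in LIF-ESCs, against 25 in Myc-ESCs, 61 and 112 H3K27me3 peaks, and 24 and 27 H3K4me3 peaks. Most of this sequence is repeated, since 93.4% of its words of 36 bases occurred more than once within the stretch, compared with 0.775 and 2.22% in the stretches of chromosomes 12 and 14 that held 3 regions each. Reads without a unique best match were dropped by the authors, and the part of the repeat in these calls was not tested. The strongest of the 10 (chr6:114566922-114568659) had a Suz12 score of 241.41, a Myc-ESC Suz12 peak 1027 bp away (score 65.54) that overlapped this LIF-ESC Suz12 peak by 717 bp, H3K27me3 scores of 70.1 and 104.54, and an H3K4me3 peak of 1738 bp in LIF-ESCs alone. This stretch held 4 of the 5 regions with the highest Myc-ESC H3K27me3 score, from 158.47 to 233.87, and the fifth was Zpbp2 on chromosome 11 (198.25), a sperm protein gene without H3K27me3 in LIF-ESCs.

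Without the 10 regions, H3K27me3 was listed at 13.3% of 98 strong regions in LIF-ESCs, against 15.3% in Myc-ESCs, and at 7.78 and 14.4% of 360 weak ones. The share with the mark in both cultures moved more. Of 41 LIF-only regions with H3K27me3 in LIF-ESCs outside the stretch, 15 had it in Myc-ESCs (36.6%, 23.6 to 51.9%). Of strong ones it was 4 of 13, among them H3f4, a histone gene with scores of 120 (LIF-ESCs) and 69.6 (Myc-ESCs) whose nearest Myc-ESC Suz12 peak was 4932 bp away. The weak region assigned to the gene model Gm49890 had the other high LIF-ESC H3K27me3 score outside the stretch, 98.2, and no Myc-ESC peak.

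H3K27me3 of both cultures was more frequent at the LIF-only regions nearest to a Myc-ESC Suz12 peak. Of the 32 regions with such a peak between 1000 and 5000 bp away, 18 had the mark in Myc-ESCs (56.3%). That share was 12.4% at 5000 to 50000 bp, 14.4% at 50000 to 500000 bp and 12.7% farther away. In LIF-ESCs the mark was listed at 15 of the 32, and at 17 of 121, 16 of 236 and 3 of 79 regions in the farther classes. Distance to a Myc-ESC Suz12 peak was part of the choice, so these counts are description. The chromosome 6 stretch held 9 of the 32, and outside it the Myc-ESC count was 9 of 23 (39.1%, 22.2 to 59.2%). Weak regions at start sites had the mark at 14 of 207 in LIF-ESCs (6.76%), against 38 in Myc-ESCs (18.4%), and those away from start sites at 21 of 160 (13.1%) in each culture. At strong regions it was 12 and 14 of 70 at start sites and 4 of 31 in each culture elsewhere. Without the stretch of chromosome 6, where none of the regions lay at a start site, the counts elsewhere were 1 of 28 strong regions (3.57%) and 14 of 153 weak ones (9.15%) in each culture.

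**Figure D4:**
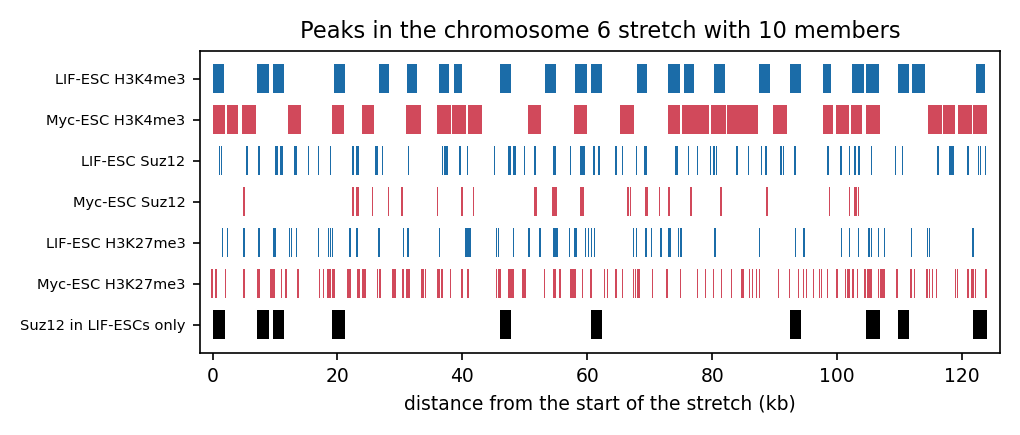
Peaks of the 6 lists and the 10 LIF-only regions (black) over the stretch of chromosome 6, against distance from its start in kb (blue for LIF-ESCs, red for Myc-ESCs). Suz12 and H3K27me3 peaks are spread along the whole stretch, with 64 LIF-ESC and 25 Myc-ESC Suz12 peaks.

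H3K4me3 stayed at nearly all of the regions in Myc-ESCs. It was listed at 96 of 101 strong regions (interval 88.9 to 97.9%) and 354 of 367 weak ones (96.5%, 94.0 to 97.9%), against 80.5% of all regions with LIF-ESC H3K4me3 and 97.8 and 97.7% of strong and weak regions with Suz12 in both cultures. The differences to the latter, −2.74 points (−8.88 to 0.158) and −1.26 points (−3.82 to 0.660), included 0. The strong regions without Myc-ESC H3K4me3 were 3 of the chromosome 6 stretch, 1 upstream of the gene model Gm5089 with a Myc-ESC Suz12 peak at 1274 bp, and 1 on chromosome 8 (chr8:34709741-34711024) with a LIF-ESC peak of 1284 bp.

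Where both cultures had H3K4me3, the peaks at LIF-only regions were longer in Myc-ESCs. The summed peak length in Myc-ESCs over that in LIF-ESCs had a median of 1.32 at strong regions (quartiles 1.17 and 1.52) and 1.22 at weak ones (1.10 and 1.38). Over all 25730 regions with H3K4me3 in both cultures the median was 1.09, and it was 1.20 and 1.15 at strong and weak regions with Suz12 in both cultures and 1.06 where Suz12 was in Myc-ESCs only. Peaks were longer in Myc-ESCs at 92 of 96 strong regions (95.8%, 89.8 to 98.4%) and 319 of 354 weak ones (90.1%), against 69.9% of all. They were at least 1.5 times as long at 26 of 96 strong regions (27.1%, 19.2 to 36.7%) and at 58 of 354 weak ones (16.4%), against 8.8% of all. With Suz12 in both cultures that share was 17.5% (strong) and 9.45% (weak). These lengths are not independent of the choice, because reach was measured from regions joined from the peaks of both cultures. A longer Myc-ESC peak can thus bring a LIF-ESC Suz12 peak within reach, so the shares are given as description. The median LIF-ESC H3K4me3 length was 2292 bp (strong) and 2097 bp (weak) at LIF-only regions. With Suz12 in both cultures it was 2495 and 2363.5 bp. In the H3K4me3 lists the median peak was 2316 bp long for LIF-ESCs and 2623 bp for Myc-ESCs.

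**Figure D5:**
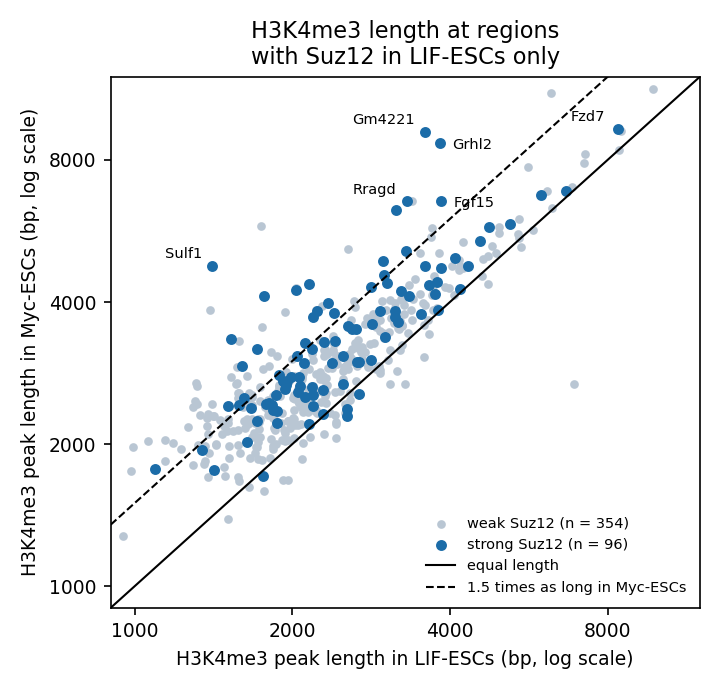
Summed H3K4me3 peak length in Myc-ESCs against LIF-ESCs (bp, both axes logarithmic) at each region with Suz12 in LIF-ESCs only and H3K4me3 in both cultures, for 96 strong (dark) and 354 weak (pale) regions. Of the strong regions 92 lie above the line of equal length and 26 on or above the dashed line of 1.5 times.

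The largest ratio was at Sulf1, which encodes a sulfatase that edits heparan sulfate at the cell surface. Its H3K4me3 peak covered 1407 bp with a score of 146 in LIF-ESCs, against 4760 bp with a score of 2311 in Myc-ESCs, and 2 LIF-ESC Suz12 peaks (60.8 and 154.78) lay beyond its LIF-ESC edge and inside the Myc-ESC peak. The gene model Gm4221 had 9 LIF-ESC Suz12 peaks, with a best score of 136, and H3K4me3 of 3581 and 9168 bp. Kcnj3, a subunit of G protein-gated potassium channels, had 4 Suz12 peaks (238.88) and H3K4me3 of 3158 and 6282 bp. A region with many Suz12 peaks did not always have a large ratio. Lmo4, a LIM-domain cofactor of transcription, had 9 Suz12 peaks with a best score of 227.51, and 5970 and 6743 bp of H3K4me3. Nr6a1, an orphan nuclear receptor, had 5 peaks (155.43) and 4089 and 4959 bp, with H3K27me3 scores of 61.1 and 95.7.

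By position, 70 of 101 strong regions (69.3%, 59.7 to 77.5%) and 207 of 367 weak ones (56.4%, 51.3 to 61.4%) lay within 2500 bp of a start site of a curated RefSeq transcript, against 45.8% of all regions with LIF-ESC H3K4me3. Regions with Suz12 in both cultures had 78.7 and 79.0%, so that the differences were −9.41 points (−19.1 to −1.08) and −22.6 points (−28.4 to −16.9). The Suz12 midpoint lay downstream of the start site at 54 of the 70 strong regions (77.1%) and 63.3% of the weak ones (56.5 to 69.6%), against 74.8 and 74.2% with Suz12 in both cultures. Its median offset at strong regions was 472 bp. By annotation, 37 strong midpoints were intergenic, 38 intronic, 15 in coding exons, 8 in a 5′ UTR and 3 in non-coding exons. Weak midpoints were intergenic at 165 of 367 (45.0%) and intronic at 122. LIF-only regions were found on every chromosome. On the autosomes and chromosome X they made up from 7.89% (chromosome 15) to 16.7% (chromosome 11) of the regions with LIF-ESC Suz12, and 88 of the 468 lay within 100000 bp of another, in 39 groups. Away from start sites, 4 of 31 strong and 11 of 160 weak regions lacked Myc-ESC H3K4me3, and at start sites 1 of 70 and 2 of 207. Outside the chromosome 6 stretch, the counts away from start sites were 1 of 28 strong and 8 of 153 weak regions.

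The regions at start sites belonged to 275 genes, 70 of strong and 205 of weak regions. They make up 1.68% of the 16326 genes with a LIF-ESC H3K4me3 region and 10.6% of the 2593 whose region had LIF-ESC Suz12. A Myc-ESC Suz12 peak lay within 2500 bp of another or the same start site of 9 of the 275 genes, among them Fgf13, Kcnn2 and Wnt5b, so for those the gene as a whole was not free of Suz12. The lists of genes below were read against that 10.6% as counts only. By region, the LIF-only share fell from 35.7% at Suz12 scores of 50 to 75 to 0.894% at 250 or more. The list shares were not matched for score, so a list of genes with high scores can have a low share through the choice itself.

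Homeobox and other developmental transcription factors, the best known Polycomb targets, were few. Of 156 such genes with LIF-ESC Suz12, 3 were LIF-only (1.92%). Besides Sall2 these were Foxj1, a factor of ciliated cells, and Klf7, with weak scores of 61.2 and 59.3 and H3K4me3 ratios of 1.01 and 1.49. The share was the lowest of the lists with at least 20 Suz12 genes, but it was not matched for Suz12 score.

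Wnt genes were near the background. In the study's Wnt list 13 of 104 Suz12 genes were LIF-only (12.5%), and among Wnt ligands, receptors and secreted regulators 4 of 35 (11.4%). Fzd7, a Frizzled receptor for Wnt proteins, had 6 LIF-ESC Suz12 peaks with scores from 57.8 to 111.15 on both sides of its start site. Its H3K4me3 peak covered 8371 bp (LIF-ESCs), against 9311 bp (Myc-ESCs), each with a listed score of 3100. That same score was listed for Sox4, Kdm2a and Nr6a1 in both cultures, so it does not show equal signal at Fzd7. The paper gives Fzd7 as an example of the genes that gained H3K4me3 in Myc-ESCs. It also measured H3K4me3, H3K27me3 and Suz12 at the Fzd7 start site by ChIP, and its RNA by qRT-PCR. It describes the gene as epigenetically repressed in LIF-ESCs and as activated in Myc-ESCs. In the lists used here no H3K27me3 peak lay at Fzd7 in either culture, and the nearest Myc-ESC Suz12 peak was 1703532 bp away. A missing peak gives no level to set against those measurements. Fzd7 was the only one of 8 genes whose chromatin the study follows that was LIF-only. Rnf43 and Znrf3, ubiquitin ligases that remove Frizzled receptors, had weak Suz12 peaks of 88.8 and 65.8. Both had a Myc-ESC H3K27me3 peak of score 62.9, and Znrf3 alone had one in LIF-ESCs (87.6). Wnt5b, a Wnt ligand, had a peak of 72.8 lying 2965 bp upstream of its nearest start site. Gpc3, a glypican on the X chromosome, was strong (136.93), with a Myc-ESC H3K27me3 peak of 57.2. Tsku, a secreted leucine-rich repeat protein, and Sox4 were just below the strong limit, at 97.6 and 94.6. The other genes of the list, at scores from 52.7 to 75.7, were Ankrd6, Cd44, Cthrc1, Mdfi and Sostdc1.

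The Jak-Stat, LIF response and pluripotency lists held too few Suz12 genes to tell their shares from the 10.6% of all genes. In the Jak-Stat lists 1 of 26 Suz12 genes was LIF-only (3.85%), Il12rb2, a cytokine receptor chain with a score of 60.1 and H3K4me3 of 1333 and 2305 bp. Among 28 genes of the LIF and Stat3 response, 5 had LIF-ESC Suz12 and 0 was LIF-only. The pluripotency list had 4 of 21, among them the weak regions of Sox4 (94.6), Stx3, a syntaxin of membrane fusion (55.5), and Aatf (99.85). Aatf is a limit case, as given above.

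Ion channel genes lay below the 10.6% of all genes, while adhesion, guidance and matrix genes lay near it. Of 115 ion channel and neurotransmitter receptor genes with LIF-ESC Suz12, 7 were LIF-only (6.09%), with Kcnj3, Kcnk1, Kcnq3 (147.07) and Trpc6 (128.65) strong and Trpc4 (72.5), Kcnk4 (64.9) and Kcnn2 (60.8) weak. None of these 7 had H3K27me3 in Myc-ESCs, against 16.5% of all LIF-only regions, and 7 genes are too few to tell these shares apart. Their H3K4me3 ratios ran from 1.35 at Trpc6 to 2.09 at Trpc4. Of 115 adhesion, guidance and matrix genes 11 were LIF-only (9.57%), 6 of them strong. Besides Sema3e and Lamb1 these included the integrins Itgb8 (214.3) and Itga1 (174.12) and the leucine-rich repeat gene Lrrn4 (171.58, 5 peaks), with H3K4me3 ratios of 1.30, 1.39 and 1.52. Itgb8 and Lrrn4 had single small Myc-ESC H3K27me3 peaks of 58.6 and 64.1.

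Other signalling lists gave single genes. TGF-beta, Bmp, Fgf, Notch and Hedgehog genes were LIF-only at 3 of 55 (5.45%), Fgf15 and the weak Fgf13 (77.4) and Dusp15 (58.5). Immediate early genes had 1 of 14, Mafk, a small Maf factor (56.6). Chromatin and Polycomb genes had 1 of 9, Kdm2a, a demethylase that binds unmethylated CG (58.7), whose H3K4me3 peaks were 5754 and 5698 bp long. Cell cycle genes had 0 of 6 and germline genes 0 of 5, and no ribosomal protein gene had LIF-ESC Suz12. In lists this short, 1 gene more or less changes the share by a large part of it.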

How the data were processed

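H3K4me3, H3K27me3 and Suz12 were profiled by ChIP-seq in LIF-ESCs and Myc-ESCs. Reads were aligned to GRCm38 with Bowtie2 2.2.3, reads with a unique best match were kept, and peaks were called with MACS 1.4.2 at default settings, as given in the paper's methods and the submitters' processing notes. The authors deposited 6 lists with the position and a score of each peak, −10 log10 of the p-value. This score served to order peaks or to set a limit inside each list. Where scores of both cultures stand side by side, they are listed values and not a comparison of signal. The score grows with depth, and the depth of each sample is unknown. Whether the 2 libraries behind a list were pooled is not given in the sources used here.

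Intervals were compared in Python 3.11.15 with pandas 2.3.3 and numpy 2.4.6, by code tested on simulated data, and 0 peaks lay beyond the chromosome ends of the reference. Start sites came from 45756 curated RefSeq transcripts (26180 symbols), and sequences were read with pysam 0.24.0 from RefSeq's GRCm38.p6. Regions were taken as marked by an H3K27me3 peak within 1000 bp. A region was named by the start site nearest to its best Suz12 peak, if within 2500 bp of the region. Named are the 12 top-scoring strong regions with a gene, the 5 highest by H3K27me3 in each culture, genes of the lists (all if 8 or fewer, otherwise the 5 with the highest scores), genes named by the study, strong regions without Myc-ESC H3K4me3, the 5 with most Suz12 peaks and those at the limits. Of these, 1 gene and 1 sequence are not reported here. The remaining genes of the Wnt list were added after their values were seen. The regions and lists were chosen with earlier results of these data known, and Wnt, Jak-Stat and pluripotency lists came from the study's supplement. Shares have 95% Wilson intervals and differences Newcombe intervals, with no p-value. Alternatives were other reaches, scores, list lengths, windows and the omission of a repetitive stretch. Expression, Myc binding and read coverage were not analysed here.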

Additional observations from a re-analysis of the deposited data

How the results depend on the processing

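Members were counted and described under 143 combinations of a result and an alternative, of which 103 stayed within the interval of the reported value (within 1.5 times for counts). Requiring a Suz12 score of at least 100 in both lists gave 216 regions in place of 468, all strong and also 216 in place of 101, with Myc-ESC H3K27me3 at 27.3% of them, and left no weak class. Requiring an H3K27me3 score of at least 100 lowered the strong shares to 1.98% (LIF-ESCs) and 2.97% (Myc-ESCs), and the weak ones to 0 (0 of 367, an upper limit of 1.04%) and 3.00%. H3K27me3 lists of equal length gave 2.97% (strong) and 2.45% (weak) in Myc-ESCs, and lists of equal length for every antibody gave 4 and 2.66%, so that the rise from LIF-ESCs to Myc-ESCs became a fall. For weak regions, a Suz12 reach of 5000 bp gave 6.35% (LIF-ESCs) and 12.2% (Myc-ESCs), and an H3K27me3 reach of 0 bp gave 12.0% in Myc-ESCs. Other values that moved for weak regions were H3K4me3 in Myc-ESCs (88.6% at a score of at least 100), the H3K4me3 length ratio (1.19 with both H3K4me3 lists at scores of at least 100) and windows with CpG island content (19.3% in 1000 bp). In 1000 bp windows CACGTG was found at 17.8% of strong and 17.4% of weak regions and TTCNNNGAA at 22.8 and 23.4%, as longer windows hold more matches. Strong regions had less Myc-ESC H3K27me3 than strong regions with Suz12 in both cultures in 14 of 14 settings, and weak regions in 13 of 13, with the intervals apart in each. The lists of equal length for every antibody, H3K4me3 lists of equal length, scores of at least 100 for H3K4me3 length, the limit of 5000 bp to a Myc-ESC Suz12 peak and the omission of all regions of the chromosome 6 stretch were chosen after seeing the data.

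No paired analysis was possible because there is 1 peak list for each culture and antibody. Leaving out a replicate was not possible either, and replicate error is unknown for every value. The lists do not show signal below the peak threshold, and depth is unknown. The peak lists give no read counts, and regions on the same chromosome stretch are not independent.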
